A study of Homo sapiens with 12 samples.

Results

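Protocadherins are the largest group of the cadherin superfamily of adhesion proteins. The clustered members lie side by side in the PCDHA, PCDHB and PCDHG clusters on chromosome 5, where each gene starts from its own promoter and neurons use different combinations of them as a surface identity. PCDHA and PCDHG genes splice their variable first exon to constant exons that the whole cluster shares, whereas a PCDHB gene is a single coding exon. The non-clustered members are separate genes, mostly of the delta-1 and delta-2 subfamilies, which act in cell sorting, cell movement and axon growth in the developing brain.

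The members were all genes in the deposited tables whose symbol starts with PCDH, which gave 73 of 25718 genes. They were 15 PCDHA, 19 PCDHB and 23 PCDHG genes, 5 delta-1 genes, 5 delta-2 genes, 3 other protocadherins and 3 antisense genes of PCDH9. The 73 genes had 147 listed transcripts, and a gene with several was represented by the transcript with the highest mean count. The rule for the genes uses only the symbol, while counts chose the transcript.

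The cells were H9, a long-established line of human embryonic stem cells, transduced as pools with a lentiviral vector from which doxycycline switches on miR-10a or miR-10b. All cultures went through 14 days of neural induction with patterning towards the midbrain. The 4 groups had 3 samples each: miR-10a with doxycycline, miR-10a control, miR-10b with doxycycline and miR-10b control. Doxycycline was present from day 11 to day 14, and a control held the same vector without doxycycline, so the drug and the microRNA cannot be told apart. The methods state triplicates without saying whether these were separate differentiations, and the p-values then measure only the spread between these samples.

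Each sample had 10545487 to 14165426 counts, every control total being above every doxycycline total of its vector. Levels are in CPM (counts in every 1000000 counts of a sample), and the floor of 3 counts a sample equals 0.212 to 0.284 CPM. Counts of replicates differed by a chi-square of 1.22 to 1.93 per degree of freedom, but by 3.17 and 4.11 in the 2 pairs that include miR-10b doxycycline replicate 2. The precursor MIR10A had 711 to 731 CPM with doxycycline and 0.641 to 1.37 CPM in its control, and MIR10B had 2541 to 2662 CPM against 2.89 to 4.45 CPM. The 6 neural progenitor markers summed to 9787 to 11427 CPM, and the 4 neural crest markers to 0.526 to 2.00 CPM. The 7 ventral midbrain markers summed to 145 to 188 CPM, with LMX1B at 0 in all samples, and of the 5 pluripotency markers POU5F1, NANOG and TDGF1 did not reach a mean of 10 counts. The samples are bulk RNA, in which fewer cells of a type and less RNA per cell cannot be told apart.

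Members with 1 listed transcript had more counts than members with several, although most of the former are PCDHB genes, so that transcript number and cluster cannot be told apart. The 19 PCDHB genes, all with 1 transcript, took 57688 of the 79171 protocadherin counts in the 12 samples, while the 15 PCDHA genes took 642 and the 23 PCDHG genes 207 over all their transcripts. Of the 26 members with 1 transcript, 21 exceeded a mean of 10 counts, the minimum for testing, and the median mean count over all 26 was 114. Of the 47 members with several transcripts, 6 exceeded it, with a median of 0.708 over all 47. The same minimum was passed by 50.7% of all genes with 1 transcript and by 34.0% of those with several.

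Reads shared by several transcripts appear to have been left uncounted, so a low count of a PCDHA or PCDHG gene does not show low expression. PCDHA9 was the only PCDHA gene above the minimum, with 0.634 to 1.90 CPM, followed by PCDHA2 and PCDHA1 with mean counts of 9.25 and 5.33. The highest PCDHG row was PCDHGB8P, a pseudogene and the only PCDHG gene with 1 transcript, with a mean of 5.08 counts. PCDHGC3 and PCDHGA11 had means of 1.67 counts each, and 5 PCDHG genes were at 0 in all samples. In all, 27 members were tested and 46 were not, and 6 were at 0 throughout, the sixth being PCDH18. One tested member, PCDH11Y, is Y-linked and its values are not given.

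**Figure D1:**
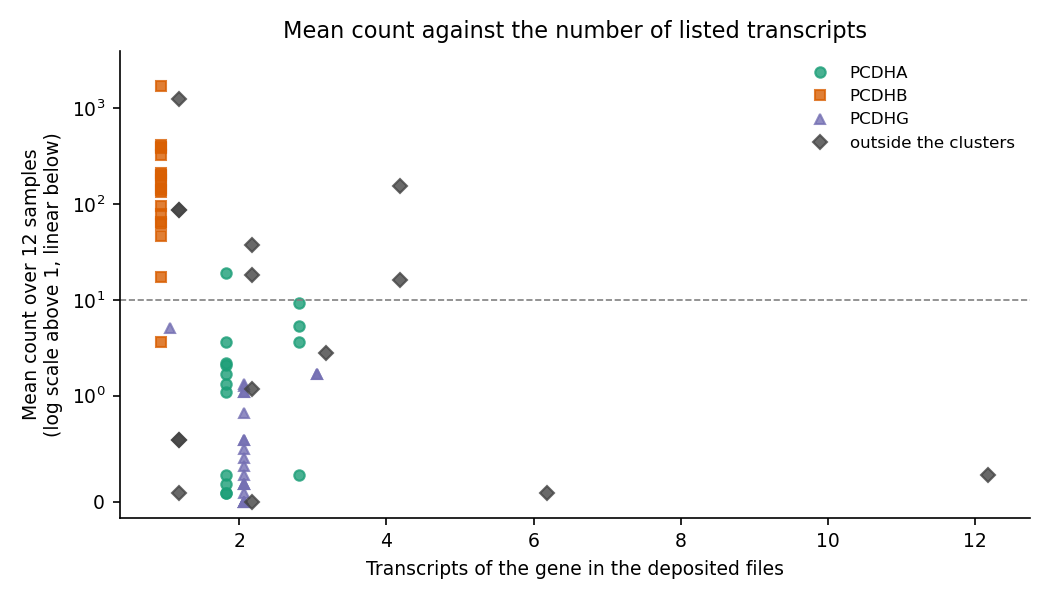
Each point is a protocadherin gene other than PCDH11Y, with the number of its listed transcripts on the x axis and its mean count over the 12 samples on the y axis, which is logarithmic above 1 and linear below. The dashed line is the minimum of 10 counts. The PCDHB genes, each with 1 transcript, sit above the line except PCDHB1, and the PCDHG genes all sit below it.

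Counts were found on all 19 genes of the PCDHB cluster, though few on PCDHB1. Its 16 coding genes and 3 pseudogenes span 198 kb of chromosome 5 (GRCh37, 140430959 to 140628933, plus strand), and all but PCDHB1 exceeded the minimum. Levels did not follow the order along the chromosome: PCDHB2, next to the proximal end, stood far above the rest, PCDHB10 and PCDHB14 in the distal part came next, and PCDHB1, at the proximal end, was last.

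PCDHB2 had a mean level of 50.1 CPM per kb of transcript (47.7 to 54.0 over the 12 samples), which made up 33.4% to 37.5% of the counts of the cluster. PCDHB10 followed with 10.3 CPM per kb (8.89 to 11.6), 4.84-fold lower, and PCDHB14 with 8.09 CPM per kb. No other gene took more than 9.49% of the cluster in any sample. PCDHB3 and PCDHB16 had 7.50 and 6.88 CPM per kb, and 8 genes from PCDHB15 to PCDHB8 lay between 5.71 and 2.85 CPM per kb.

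PCDHB6 had 1.75 CPM per kb, PCDHB7 had 1.72, and the pseudogenes PCDHB18P, PCDHB19P and PCDHB17P had 1.60, 0.826 and 0.580. PCDHB1 had 0.112 CPM per kb, from 3.58 counts a sample on average. Among the 18 pairs of neighbours in this order, the sample ranges of 14 overlapped. The 4 pairs without overlap were PCDHB2 over PCDHB10, PCDHB10 over PCDHB14, PCDHB18P over PCDHB19P, and PCDHB17P over PCDHB1.

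**Figure D2:**
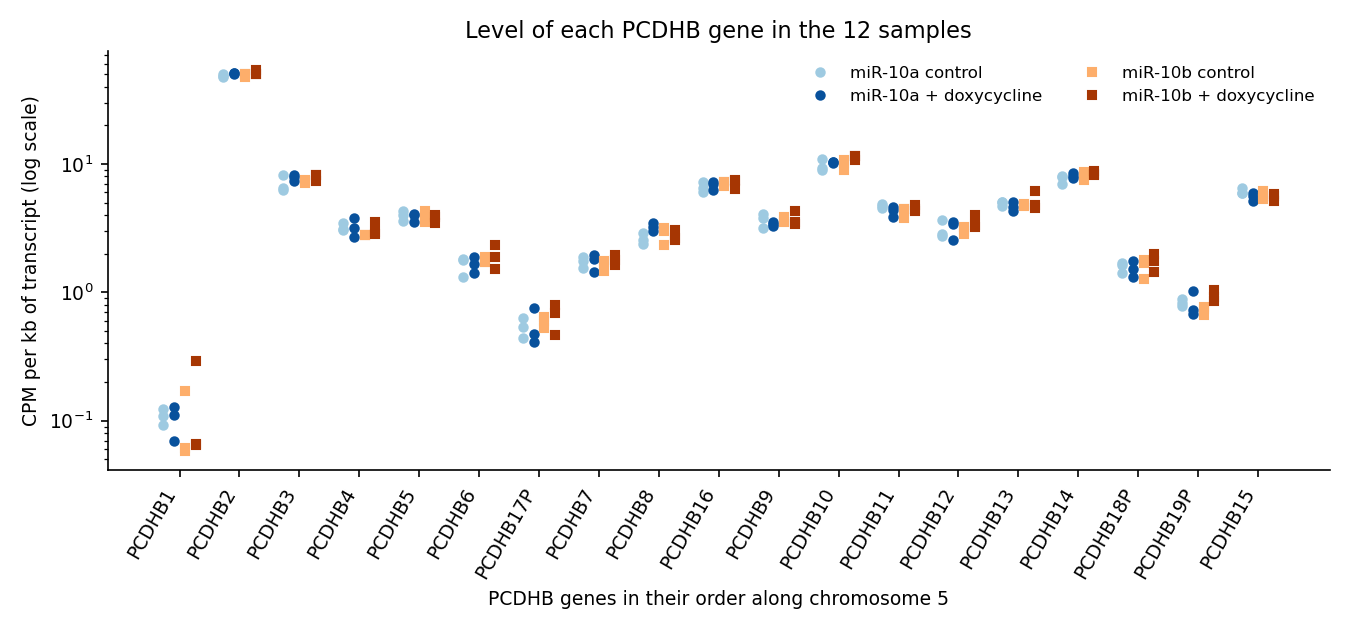
The x axis lists the 19 PCDHB genes in their order along chromosome 5, and the y axis gives CPM per kb of transcript on a log scale. Each point is 1 of the 12 samples, coloured by group. PCDHB2 lies between 47.7 and 54.0 in all samples, every other gene at or below 11.6, and the 4 groups overlap at most genes.

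Sequence and annotation touch these levels in several ways. Of the 50-base windows of a PCDHB transcript, 53.0% (PCDHB8) to 94.4% (PCDHB19P) occur once in the genome, with a median of 85.3% and with 62.1% for PCDHB2, against 99.8% to 100% for the 7 tested genes outside the clusters that are described here. How reads matching several places were counted is not given in the sources used here, so levels of near-identical PCDHB genes are uncertain. For 61.3% of its exon bases PCDHB2 overlaps the antisense gene PCDHB1-AS1, and the strand setting of the counting is not stated, so reads of the 2 genes cannot be told apart. The pseudogenes PCDHB17P and PCDHB19P overlap other annotated genes for 100% and 91.6% of their exon bases. These percentages describe the GENCODE transcript closest in length to the counted one, and the 2 can differ. The lengths were 2230 against 2774 bases for PCDHB2 and 2371 against 4624 for PCDHB19P.

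Clustered protocadherin promoters are known for a short conserved element bound by the insulator protein CTCF, which brings a promoter to its distant enhancers. The PCDHB promoters are shown because they belong to the cluster the counts could resolve. A link between a promoter and the level of its gene was not tested. The RefSeq promoter table (GRCh38.p14, 250 bases before to 50 bases after the start) holds 14 of the 19 PCDHB genes. The longest string found in at least 90% of them was GGTGGCGCT, searched on both strands. By that choice it is common in PCDHB promoters, being in 13 of 14, all but PCDHB1. It was in 0 of 13 PCDHA, 0 of 20 PCDHG and 0 of 13 other PCDH promoters in the table, and in 0.573% of the promoters of 27243 other genes. The exact string was chosen on PCDHB promoters, so these counts cannot show whether the other clusters lack the conserved element. The other PCDH promoters include those of the antisense genes PCDH9-AS1, PCDH9-AS3 and PCDH9-AS4. The string began 2 to 84 bases before the start, with a median of 66. The windows of the 4 genes with the highest levels and of PCDHB8 and PCDHB13, also among the 4 with the fewest unique 50-base windows, follow, 5′ to 3′ on the plus strand, with the shared string in capitals.
PCDHB2, chr5:141094545-141094574: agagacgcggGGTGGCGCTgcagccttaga
PCDHB10, chr5:141192300-141192329: gaggccacacGGTGGCGCTgcaggctaaag
PCDHB14, chr5:141223264-141223293: ggagacacatGGTGGCGCTacaggataaga
PCDHB3, chr5:141100394-141100423: gcgaacgcatGGTGGCGCTgttgactaaga
PCDHB8, chr5:141177778-141177807: gaggacccgtGGTGGCGCTgcaggataaga
PCDHB13, chr5:141213866-141213895: gaggacgcgtGGTGGCGCTgcaggataaga
PCDHB2 and PCDHB8, whose levels per kb lie far apart, both hold the string. A match is a description of these letters and no measurement of binding.

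In total, levels of single PCDHB genes varied between samples about as much as those of other genes, and less relative to counting variation. The coefficient of variation over the 12 samples was 3.37% to 21.8% among the 18 tested PCDHB genes, with a median of 9.09%, against 10.2% over all 11451 tested genes. Divided by the variation that counting alone gives, it was 0.903 to 1.79, with a median of 1.22, and 2 of the 18 genes (11.1%), PCDHB10 and PCDHB3, exceeded 1.5. Among all tested genes the median ratio was 1.36 and 41.6% exceeded 1.5. The variation from counting alone was larger for PCDHB genes, with a median of 7.89% against 6.73%, which lowers the ratio. Outside the clusters PCDH17, PCDH8, PCDH1 and PCDH20 had ratios of 2.33, 2.18, 2.05 and 2.04.

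The main question of the design was what changes when miR-10a or miR-10b is switched on. Of the 27 tested protocadherins, 1 changed: PCDH20, which fell with miR-10b and over both vectors. In the quasi-likelihood test of edgeR, adjusted by Benjamini-Hochberg over all tested genes, 0 members passed an adjusted p of 0.05 with miR-10a. Of all tested genes 1.21% did. At an unadjusted p under 0.05 there were 3 members, against 1278 of the 11451 tested genes. DESeq2 also called 0 members, against 125 of all tested genes. With miR-10b 1 member passed, against 15.3% of all genes, and over the mean of both vectors 1, against 13.9%. For genes that fell, the background was 7.15% with miR-10b and 6.22% over both vectors. The difference between the effects of the vectors passed for 0 members, against 1.96% of all genes. There were 0 members at an unadjusted p under 0.05, against 1510 of all tested genes, and 0 called by DESeq2, against 173.

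**Figure D3:**
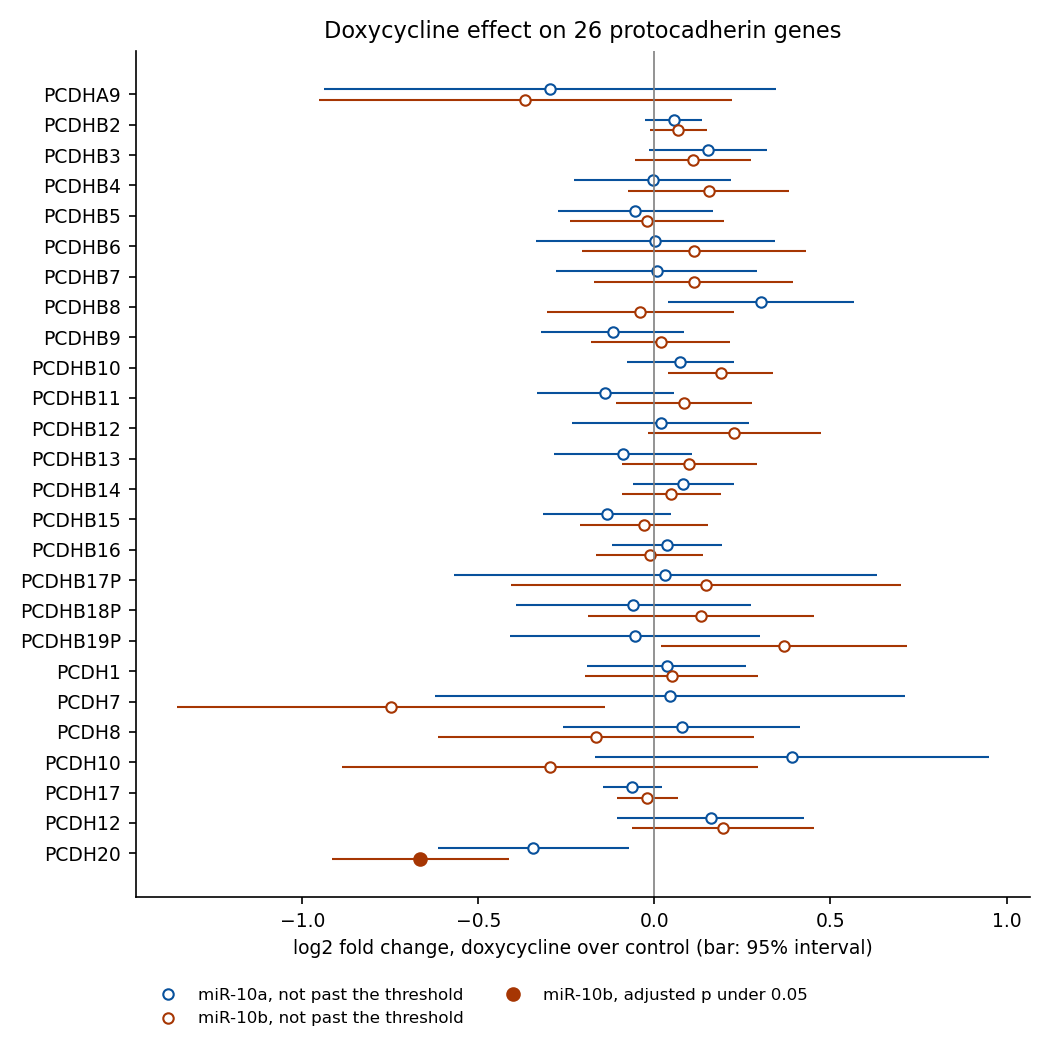
Points give the log2 fold change with doxycycline over the control of the same vector for the 26 tested protocadherins other than PCDH11Y, in blue for miR-10a and brown for miR-10b, and bars give 95% intervals of the edgeR fit. The filled point has an adjusted p under 0.05. PCDH20 with miR-10b, at -0.66, is the only filled point, and the PCDHB genes lie between -0.14 and 0.37.

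PCDH20 is a non-clustered protocadherin outside the delta subfamilies (NM_022843, chromosome 13, GRCh37 61983818 to 61989982, minus strand, 2 exons). It had 5.89, 5.49 and 5.99 CPM in the miR-10b doxycycline samples and 9.05, 9.19 and 9.32 CPM in the miR-10b control samples. With miR-10a it had 5.98, 4.64 and 6.35 CPM in the doxycycline samples and 7.15, 7.27 and 6.97 CPM in the control samples. All 6 doxycycline samples were therefore below all 6 control samples. The group means were 5.79 ± 0.263 against 9.19 ± 0.130 CPM for miR-10b and 5.66 ± 0.903 against 7.13 ± 0.151 CPM for miR-10a (SD, n = 3).

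With miR-10b PCDH20 fell by 0.66 on the log2 scale (SE 0.124, 95% interval -0.92 to -0.41, edgeR adjusted p = 0.000174), and over both vectors by 0.50 (SE 0.0912, adjusted p = 0.000122). With miR-10a the log2 fold change was -0.34 (SE 0.134, 95% interval -0.62 to -0.07), and its adjusted p of 0.278 missed the threshold. The effects of the vectors differed by -0.32 (95% interval -0.69 to 0.05, adjusted p = 0.475). The miR-10b call was also made without replicate 2 of its doxycycline group (-0.63, adjusted p = 0.00111) and in all 20 settings, with an adjusted p from 3.22e-05 to 0.00149.

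Overlapping annotation limits the identity of this signal: 91.3% of the PCDH20 exon bases also lie in ENSG00000197991 in the annotation used here, and reads of the 2 cannot be told apart. The overlap was counted without regard to strand. Whether ENSG00000197991 is a separate gene or another model of PCDH20 was not checked. Markers of other cell states moved with miR-10b as well. The mesenchymal markers, 3 of 4 of them above 10 counts on average, summed to 267 to 287 CPM with doxycycline and 322 to 340 CPM without, and the neuronal markers, 3 of 6, to 436 to 476 and 358 to 384 CPM. The 6 neural progenitor markers summed to 10802 to 10977 against 11326 to 11427 CPM, and the pluripotency markers, 2 of 5, to 996 to 1009 against 1229 to 1258 CPM. Of these 2 pluripotency markers, DPPA4 and LIN28A, 1 was called lower, at -0.34 on the log2 scale, and the other had -0.03. The paper reports LIN28A as a miR-10 target that fell with both microRNAs, so its level is not a marker of cell state alone. The ventral midbrain markers, 5 of 7, summed to 159 to 173 against 183 to 188 CPM, but moved both ways. Of these 5, 2 were called lower, against 7.15% of all tested genes, and 3 had positive log2 fold changes. Their values ran from -0.77 to 0.27. The part of all these cell state markers in the PCDH20 result was not tested.

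**Figure D4:**
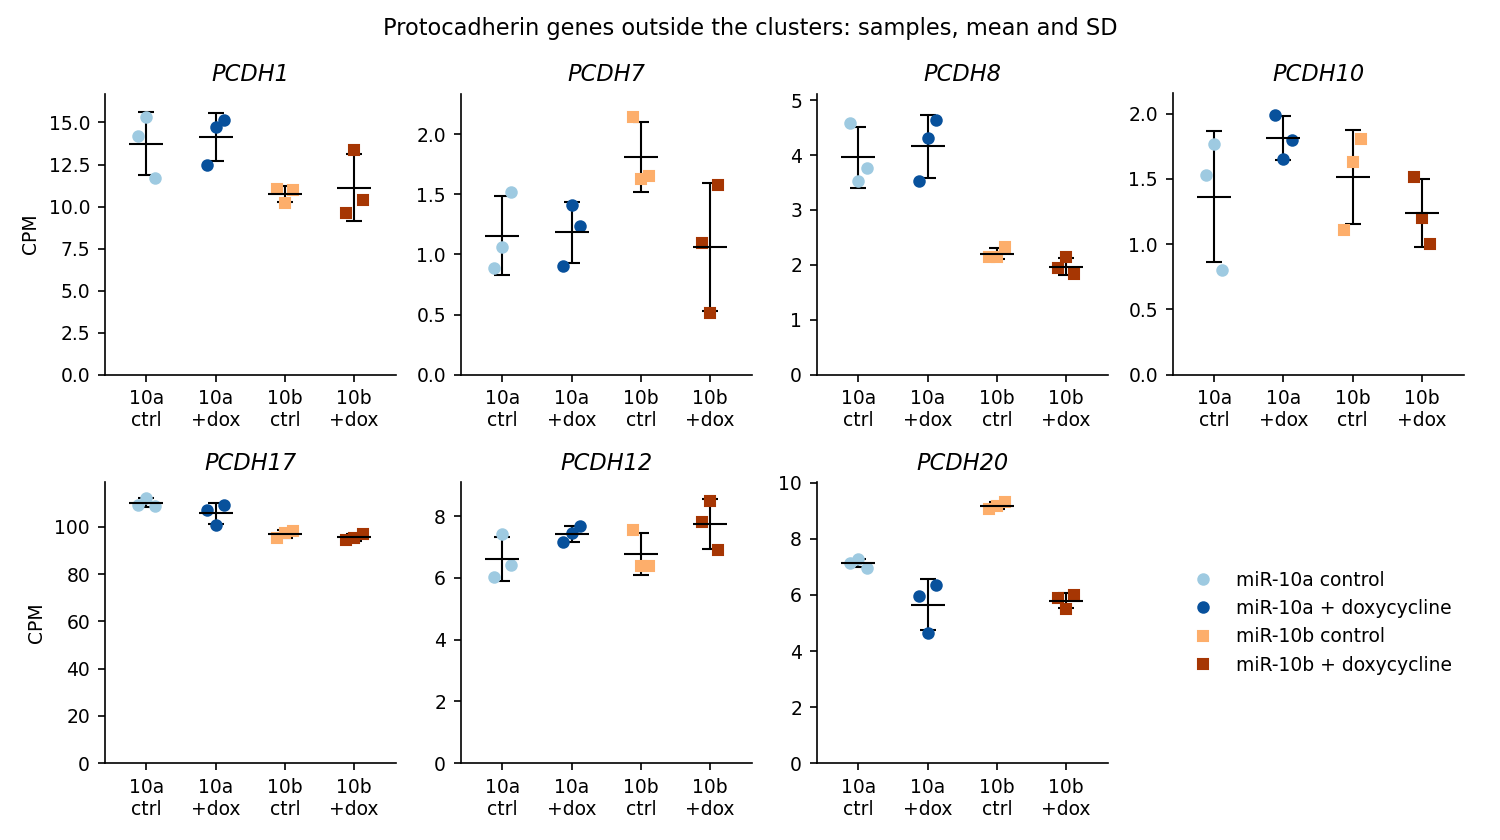
Each panel gives the CPM of a tested protocadherin outside the clusters on a y axis that starts at 0, with 3 samples a group as points and the mean ± SD as black bars. In the PCDH20 panel all doxycycline points lie below all control points of the same vector. In the PCDH8 and PCDH17 panels both miR-10b groups lie below both miR-10a groups.

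No PCDHB gene passed the threshold in any comparison. In the 18 tested PCDHB genes the median log2 fold change was 0.004 for miR-10a (range -0.14 to 0.30) and 0.104 for miR-10b (range -0.04 to 0.37), against 0.010 and 0.021 over all tested genes. The largest positive values were those of PCDHB8 with miR-10a, 0.30 (adjusted p = 0.350), and of the pseudogene PCDHB19P with miR-10b, 0.37 (adjusted p = 0.154). In miR-10b 14 of the 18 values were positive and in miR-10a 10, where 6346 and 6175 of the 11451 tested genes had positive values. The miR-10a median was -0.004 with TMM factors and -0.003 in DESeq2, so its sign changed with the scaling. The miR-10b median stayed positive, at 0.088 with TMM factors (14 of 18 values positive), 0.084 in DESeq2 (13 of 18) and 0.038 without replicate 2 of the doxycycline group (11 of 18). Among all tested genes 5862, 5740 and 6247 values were positive in these 3 settings. Counted by an unadjusted p under 0.05, the PCDHB genes numbered 1 with miR-10a, 2 with miR-10b, 3 over both vectors, and 0 for the difference and between the controls. Among all 11451 tested genes these counts were 1278, 3161, 3038, 1510 and 2859. DESeq2 called 0 PCDHB genes in each comparison, where it called 125, 1306, 1199, 173 and 1234 of all tested genes.

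The summed PCDHB level stayed within narrow limits. It was 395, 380 and 399 CPM with miR-10a and doxycycline and 380, 398 and 370 CPM in the miR-10a control, ranges that overlap. It was 399, 417 and 400 CPM with miR-10b and doxycycline and 388, 388 and 377 CPM in the miR-10b control, which do not overlap. Replicate 2 of the doxycycline group is the highest of the latter, and the other two doxycycline samples were also above the 3 controls. All protocadherins together took 537.4, 532.2, 535.7 and 519.8 CPM on average in the miR-10a doxycycline, miR-10a control, miR-10b doxycycline and miR-10b control groups.

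PCDHB2, with 149.8, 139.3 and 139.7 CPM with miR-10b and doxycycline, stood above its control samples at 138.1, 138.6 and 132.3 CPM, by 0.07 on the log2 scale (95% interval -0.01 to 0.15, adjusted p = 0.27). With miR-10a it had 139.8, 141.7 and 140.3 CPM against 140.0, 132.8 and 133.7 CPM, a difference of 0.05 (95% interval -0.03 to 0.14). The gene had at least 1480 counts in each sample. Groups did not overlap for 2 of the 18 PCDHB genes with miR-10a and 3 with miR-10b, where the share among all tested genes was 18.2% and 28.7%.

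PCDHB10 came nearest to the threshold among the PCDHB genes. It had 37.9, 37.8 and 35.3 CPM with miR-10b and doxycycline and 33.1, 35.3 and 29.0 CPM in the control, and 33.9, 33.9 and 32.9 against 30.5, 35.7 and 29.2 CPM for miR-10a. The groups overlapped for both vectors: replicate 2 of the miR-10a control was above all 3 miR-10a doxycycline samples, and replicate 2 of the miR-10b control was level with the lowest miR-10b doxycycline sample. Its log2 fold change was 0.19 with miR-10b (SE 0.0729, adjusted p = 0.0777) and 0.13 over both vectors (adjusted p = 0.0947). Without replicate 2 of the miR-10b control the values were 0.25 (adjusted p = 0.0353) and 0.16 (adjusted p = 0.0474), and without replicate 2 of the miR-10a control the mean of both vectors was 0.18 (adjusted p = 0.019). In that last setting PCDHB3 also passed, at 0.20 (adjusted p = 0.0116).

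The other non-clustered genes did not pass the threshold with either vector. PCDH7, a delta-1 protocadherin, had 1.09, 0.515 and 1.58 CPM with miR-10b and doxycycline and 2.14, 1.63 and 1.65 CPM in the control, groups that do not overlap although replicate 3 comes near. Its log2 fold change was -0.75 (95% interval -1.36 to -0.14, adjusted p = 0.0881). It was -1.15 without doxycycline replicate 3, which passed (adjusted p = 0.0203), and -0.43 without doxycycline replicate 2 (adjusted p = 0.415). These values rest on a mean of 16.2 counts a sample.

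PCDH12, known from endothelial cells, had a log2 fold change of 0.16 for miR-10a and of 0.20 for miR-10b (over both vectors 0.18, adjusted p = 0.212). The 3 endothelial markers summed to 4.82 to 7.04 CPM over all samples. PCDHA9 had -0.30 and -0.37, with 95% intervals from -0.94 to 0.35 and from -0.95 to 0.22. PCDH1, PCDH8 and PCDH17 had log2 fold changes between -0.17 and 0.08 with either vector.

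Direct targets of a microRNA are read from its seed, bases 2 to 8, which pairs with the 3′UTR of a messenger RNA. The mature miR-10a-5p is given from RefSeq (GRCh38.p14, chr17:48579904-48579926, minus strand) because the sites below are matched to it, with the seed in capitals.
miR-10a-5p: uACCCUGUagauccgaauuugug
The 7-base match to the seed (7mer-m8) is ACAGGGT, and ACAGGGTA, which holds it, is the 8mer. In the longest annotated 3′UTR (GENCODE, GRCh37) the 8mer was present in 1 and the 7mer-m8 in 3 of 23 tested protocadherins with a 3′UTR, among them PCDH10 with the 8mer and PCDHB13 with the 7mer-m8. That is 4.35% and 13.0%, where the tested genes as a whole had 2.59% and 13.7%, and 60.9% of these protocadherins held no match of 6 bases or more, as did 59.3% of the tested genes. The sites of PCDH10 and PCDHB13 are given on the strand of the gene, the plus strand for both, with the match in capitals.
PCDH10, chr4:134115611-134115618: gtgagtgaaaACAGGGTAttataacaaa
PCDHB13, chr5:140598036-140598042: tgttttagagACAGGGTcttagtcacct

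PCDH10 and PCDHB13 did not change past the threshold. PCDH10, a delta-2 protocadherin, had 1.99, 1.66 and 1.80 CPM with miR-10a and doxycycline and 1.53, 1.76 and 0.801 CPM in the control, and 1.51, 1.20 and 0.998 against 1.11, 1.63 and 1.80 CPM for miR-10b. The groups overlapped for both vectors. Its log2 fold changes were 0.39 (95% interval -0.17 to 0.95) and -0.30 (95% interval -0.89 to 0.29), which differed by -0.69 (95% interval -1.50 to 0.13, adjusted p = 0.483). The mean was 18.2 counts a sample. The 8mer starts at base 4296 of the 3′UTR, and the counted transcript, NM_032961, has 5366 bases in all, coding sequence included. Whether NM_032961 holds the site was not checked, so these fold changes do not test the site.

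PCDHB13 is better measured, with a mean of 211.0 counts. Over both vectors its log2 fold change was 0.00 (95% interval -0.13 to 0.14). The PCDHB13 site starts at base 1944 of the 3′UTR, and the counted transcript has 3503 bases, coding sequence included, against 5061 in GENCODE. Whether the counted transcript holds the site was not checked, so this value does not test the site. PCDH20, the gene that fell with miR-10b, had no match to the miR-10a-5p seed in its annotated 3′UTR of 1558 bases. The miR-10b-5p sequence was not used here, and both microRNAs are known to share their seed.

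In the comparison of the miR-10b control with the miR-10a control, 5 of 27 members (18.5%) passed, near the 14.1% of all tested genes, and all 5 were outside the clusters. The count was 2 in DESeq2, 2 without miR-10a control replicate 1 or 2 or miR-10b control replicate 3, and 3 without miR-10b control replicate 1 or 2. PCDH1, PCDH8 and PCDH17 were lower in the miR-10b control and PCDH20 was higher, and the fifth was PCDH11Y. Of the 50-base windows of PCDH11Y only 42.5% occur once in the genome. The source of its reads is therefore uncertain, and its call is not read as a result about that gene. The background was 7.41% for higher and 6.72% for lower genes. Groups did not overlap for 9 of the 27 members, against 30.1% of all tested genes. The control samples are the same ones as in the doxycycline comparisons.

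PCDH8, a delta-2 protocadherin that takes N-cadherin from the cell surface, had 4.58, 3.53 and 3.77 CPM in the miR-10a control and 2.14, 2.15 and 2.33 CPM in the miR-10b control. The doxycycline samples stood in the same order, with 3.53, 4.31 and 4.65 CPM for miR-10a and 1.94, 2.14 and 1.83 CPM for miR-10b. All 6 miR-10b samples were thus below all 6 miR-10a samples. The difference between the controls was -0.83 on the log2 scale (SE 0.185, 95% interval -1.21 to -0.46, adjusted p = 0.00117), and it passed in each of the 19 settings where the gene was tested.

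PCDH17, a delta-2 protocadherin of growing axons and the non-clustered member with the most counts, had 109.5, 112.5 and 108.8 CPM in the miR-10a control and 95.2, 97.6 and 98.1 CPM in the miR-10b control. With doxycycline it had 107.0, 100.8 and 109.3 against 94.3, 95.3 and 97.2 CPM. The vectors again did not overlap. The difference between the controls was small, -0.19 on the log2 scale, but precise (SE 0.0414, 95% interval -0.27 to -0.10, adjusted p = 0.00132), and it passed in all 20 settings.

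PCDH1, a delta-1 protocadherin also known from airway epithelium, had 14.2, 15.3 and 11.7 CPM in the miR-10a control and 11.0, 10.2 and 11.0 CPM in the miR-10b control. The groups did not overlap. The difference was -0.36 (SE 0.113, adjusted p = 0.0259). This call was lost in several settings, where the adjusted p was 0.0804 in DESeq2, 0.0905 and 0.206 without replicate 1 or 2 of the miR-10a control, and 0.053, 0.109 and 0.0594 without replicate 1, 2 or 3 of the miR-10b control. The log2 differences in these settings were -0.38 to -0.27.

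PCDH20 was 0.36 higher in the miR-10b control (SE 0.116, adjusted p = 0.029), with 3 samples above 3. This call too was lost in DESeq2 (adjusted p = 0.133) and without any 1 of the 6 control samples. The log2 difference stayed between 0.35 and 0.38, and the adjusted p was 0.0714, 0.0675 and 0.0862 without miR-10a control replicate 1, 2 or 3, and 0.0576, 0.071 and 0.0816 without miR-10b control replicate 1, 2 or 3. In the doxycycline samples PCDH20 lay at 5.49 to 5.99 CPM with miR-10b and 4.64 to 6.35 CPM with miR-10a, which overlap.

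The 18 tested PCDHB genes gave 0 calls between the controls, with a median of -0.005 (range -0.20 to 0.15) against -0.010 over all tested genes. An unadjusted p under 0.05 was reached by 0 of them. Of all 11451 tested genes 14.1% were called and 2859 had such a p. Beside these results, the mesenchymal markers summed to 128 to 132 CPM in the miR-10a control and 322 to 340 CPM in the miR-10b control. The 6 neural progenitor markers summed to 10165 to 10249 and 11326 to 11427 CPM, but moved both ways. Of them 3 were called higher and 2 lower in miR-10b, against 7.41% and 6.72% of all tested genes. Their log2 differences ran from -1.23 to 0.19. The ventral midbrain markers summed to 148 to 157 and 183 to 188 CPM, and the pluripotency markers to 1643 to 1721 and 1229 to 1258 CPM. Their part in the differences was not tested, and the vector cannot be told apart from the culture that carried it.

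Genes that work with protocadherins were taken from lists chosen with earlier results of these data known. Of the proteins that hold clustered promoters to their enhancers or silence them, 16 of 18 were tested, and over both vectors 2 rose and 3 fell, where 7.67% of all tested genes rose and 6.22% fell. The cohesin loader MAU2 rose by 0.19 and WIZ, a zinc finger protein at cohesin sites, by 0.09, while the cohesin subunits RAD21 and SMC3 and the cohesin regulator PDS5B had log2 fold changes of -0.07, -0.08 and -0.11. The median of the list was -0.05. The 5 calls over both vectors became 4 with TMM factors, 4 in DESeq2 and 3 without replicate 2 of the miR-10b doxycycline group. With miR-10b alone 1 rose and 4 fell, against 8.18% and 7.15% of all tested genes, and with miR-10a 1 rose, MAU2 at 0.14, against 0.472%. That miR-10a count was 0 with TMM factors. Between the controls 0 were called by edgeR, with 0 at an unadjusted p under 0.05 and 0 by DESeq2. Of all 11451 tested genes edgeR called 14.1%, 2859 had such a p and DESeq2 called 1234. CTCF had -0.03 over both vectors (adjusted p = 0.662).

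Of the kinases and actin regulators through which protocadherins signal, 11 of 17 were tested. By the edgeR fit of all samples and by DESeq2, 0 were called in any comparison. Of all tested genes that edgeR fit called 1.21% with miR-10a, 15.3% with miR-10b and 13.9% over both vectors. It called 1.96% for the difference and 14.1% between the controls. With counts summed over transcripts edgeR called 1 with miR-10b and 1 over both vectors, against 1747 and 1596 of 11451 tested genes. Without replicate 2 of the miR-10b doxycycline group it called 1 with miR-10b, against 1460. At an unadjusted p under 0.05 in the fit of all samples the listed genes numbered 2 with miR-10b and 2 over both vectors, and 0 in the other comparisons. Among the 11451 tested genes 3161 and 3038 had such a p, and 1278 to 2859 in the other comparisons. The median over both vectors was -0.02.

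Of the classical and type II cadherins and catenins, 15 of 24 were tested. Over both vectors 1 fell, CDH2, the neural N-cadherin, at -0.06, where 6.22% of all tested genes fell. Between the controls 3 were higher and 2 lower in miR-10b, against 7.41% and 6.72%. Of the FAT, Dachsous and CELSR group, giant cadherins of planar polarity listed with the synaptic calsyntenins, 10 of 12 were tested. Over both vectors 4 rose and 0 fell, against 7.67% and 6.22% of all tested genes: FAT3 by 0.13, CLSTN3 by 0.11, DCHS1 by 0.08 and CELSR1 by 0.07. The 4 calls became 2 in DESeq2, 2 with TMM factors and 3 without replicate 2 of the miR-10b doxycycline group. With miR-10b alone 4 rose and 1 fell, and these 5 calls became 2 in DESeq2, 2 with TMM factors and 3 without that replicate. Between the controls 5 were higher and 1 lower in miR-10b, against 7.41% and 6.72%.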

How the data were processed

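The authors' processing notes name STAR, Subread and featureCounts and the build hg19, without versions. The deposited values are raw counts of single-end reads per RefSeq transcript, 1 table of 51799 rows a sample, in which 3698 repeated rows were dropped. Methods and labels name different kits (RNeasy and NuGEN Ovation against miRNeasy and Illumina). Genes with 1 transcript held 92.8% of all counts.

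The main test was the quasi-likelihood F test of edgeR 4.0.16 under R 4.3.3 (total counts as library sizes, mean above 10 counts, 11451 genes, 4 group means in 1 fit, adjusted p under 0.05), and the code was tested on simulated data. The log2 fold change divided by the square root of F gave the SE. Alternatives were TMM factors, DESeq2 1.42.0, other minimums, a replicate block, separate fits, summed transcripts and leaving out each replicate.

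The members and lists were chosen with earlier results of these data known. Named were members past the threshold, the 3 highest per kb in each family, members with an 8mer or 7mer-m8 seed match, up to 8 called genes a list, and the precursors, and 2 of the seed matches are not reported here. PCDHB3, PCDHB8, PCDHB19P and genes given for their rank in the PCDHB order were named after their values were seen. Sequences came from GRCh37 with GENCODE and from RefSeq tables (GRCh38.p14). Intervals and floors cover counting error or the spread between samples only.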

Additional observations from a re-analysis of the deposited data

How the results depend on the processing

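The counts of called protocadherins and the fold changes of named genes were recomputed under every alternative that could be run, the gene lists under 4 of them and the summed shares of reads with summed transcripts only. Levels, coefficients of variation, marker sums and motif counts were not recomputed. With miR-10a and for the difference between vectors, 0 protocadherins were called in every setting. With miR-10b the count of 1 became 2 with the replicate number as a block, PCDHB10 being the added gene, and ranged from 1 to 2 when single replicates were left out. Over both vectors it ranged from 1 to 3 without single replicates. Between the controls the count of 5 became 2 in DESeq2 and 3 with a mean above 50 counts, where fewer genes were tested, and ranged from 2 to 5 without single replicates. The cause of the DESeq2 loss was not tested. Same-numbered samples deviated from their group means with correlations of -0.03 to 0.01, so the numbers do not pair the samples, and the block gives only that added call. Of 1254 fold changes under alternatives of the genes named by rule, 1236 stayed on their side of the threshold, 13 lost their call and 5 gained one. Among them 0 past the threshold changed sign. Genes named after their values were seen are not in these counts, and PCDHB3, 1 of those, gained 1 call over both vectors. Values that missed the threshold in all settings could change sign. At 3 counts per sample the floor is 0.212 to 0.284 CPM, so that PCDHA and PCDHG genes at 0 may lie below it or may have lost their shared reads.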
